A study of Mus musculus with 23 samples.

Results

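The cornified envelope and desmosome genes are the genes from which a keratinocyte builds its tough outer shell and the junctions that hold it to its neighbours. Members were taken by symbol: all Lce, Sprr, Dsg and Dsc genes and 20 named envelope, plaque, transglutaminase and related genes, 67 symbols in all. Of these, 63 of the 37620 gene identifiers in the count files were matched and are described here. They are 7 envelope scaffold genes, 16 Sprr genes, 19 Lce genes, 9 desmosomal cadherins, 6 plaque genes, 2 transglutaminases and 4 others. Flg, Sprr2c-ps, Lce1d and Lce1k were not analysed here.

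RNA was sequenced from mouse melanomas of an ultraviolet-induced metastatic model, 23 libraries in all. Lung metastases (2 libraries, numbered 3 and 4) and lymph node metastases (7 libraries, numbered 3, 4, 5, 6, 7a, 7b and 8) came from HPN mice, which are heterozygous for both Nme1 and Nme2 (Nme1+/- / Nme2+/-). HPN primaries (7 libraries, numbered 1 to 7) were primary melanomas of the same genotype, and HP primaries (7 libraries, numbered 1, 3, 4, 5, 6, 7 and 9) were primary melanomas with both genes wild type (Nme1wt / Nme2wt). Nodes 3, 4 and 8 were labelled brachial, nodes 6 and 7a cervical, node 7b inguinal and node 5 only lymph. The labels do not spell out HP, give no ages, and leave unstated whether each primary was taken from its own animal. The p-values below therefore stand for the variation among these samples, which may be partly technical. The labels name no cell sorting, so a library may hold RNA from every cell type in the piece taken.

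Loricrin, involucrin and the small proline-rich (Sprr) and late cornified envelope (Lce) proteins are laid down under the membrane of a dying keratinocyte and are joined into one sheet by transglutaminases. Desmosomes are made of cadherins of the Dsg and Dsc families that span the membrane, and of plaque proteins, with desmoplakin tying the cadherins to the keratin filaments. Melanocytes sit among keratinocytes and adhere to them mainly by classical cadherins, and do not form a cornified envelope.

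The depth behind each value was 18870759 to 89481553 gene counts per library, and levels are CPM values, counts divided by the library total and scaled to one common size, with library totals adjusted by edgeR's trimmed mean of M values (TMM). Melanocyte lineage markers (7 genes: Mlana, Tyr, Dct, Pmel, Tyrp1, Mitf and Sox10) summed to 23900 to 35400 CPM in lungs, 4430 to 43600 CPM in nodes, 6090 to 61700 CPM in HPN primaries and 7790 to 53000 CPM in HP primaries, with each marker detected in each group. In bulk samples, fewer cells of a type and less RNA per cell cannot be told apart. The counts of 26 members are uncertain, because over 10% of the 50-base windows of their transcripts also occur in another gene: 16 Lce genes, 6 Sprr genes, Dsg1a, Dsg1b, Dsg1c and Sfn.

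The summed level of the 63 members was low in all metastases and ranged widely among the primaries of both genotypes. The sum was 93.9 CPM in lung 3 and 320 CPM in lung 4. In nodes 3, 4, 5, 6, 7a, 7b and 8 it was 103, 79.7, 140, 215, 286, 227 and 166 CPM. HPN primaries 1 to 7 summed to 10200, 159, 1930, 7250, 44.3, 1000 and 83.1 CPM. HP primaries 1, 3, 4, 5, 6, 7 and 9 summed to 8990, 5330, 5630, 50.8, 17600, 32.9 and 61.9 CPM. In each genotype 4 primaries were at or above 1000 CPM and the other 3 were at or below 159 CPM, and of these only HPN primaries 2 and 7 lay within the range of the metastases. Keratinocyte markers that are not members moved with this split. The sum of 6 basal keratinocyte markers (Krt5, Krt14, Krt15, Col17a1, Itgb4 and Trp63) was 4760, 43.8, 1640, 1810, 6.88, 529 and 55.4 CPM in HPN primaries 1 to 7, and 4680, 3510, 2730, 19.4, 7880, 9.3 and 11.6 CPM in the HP primaries in the order above. It was 32.7 and 34.4 CPM in lungs 3 and 4 and 13.6 to 37.6 CPM in nodes. Itgb4 alone had 5.63 and 15 CPM in these lungs and 9.43 to 25.1 CPM in nodes. All 6 were detected in each group, and their part in the results below was not tested except where a fit with them is given.

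**Figure D1:**
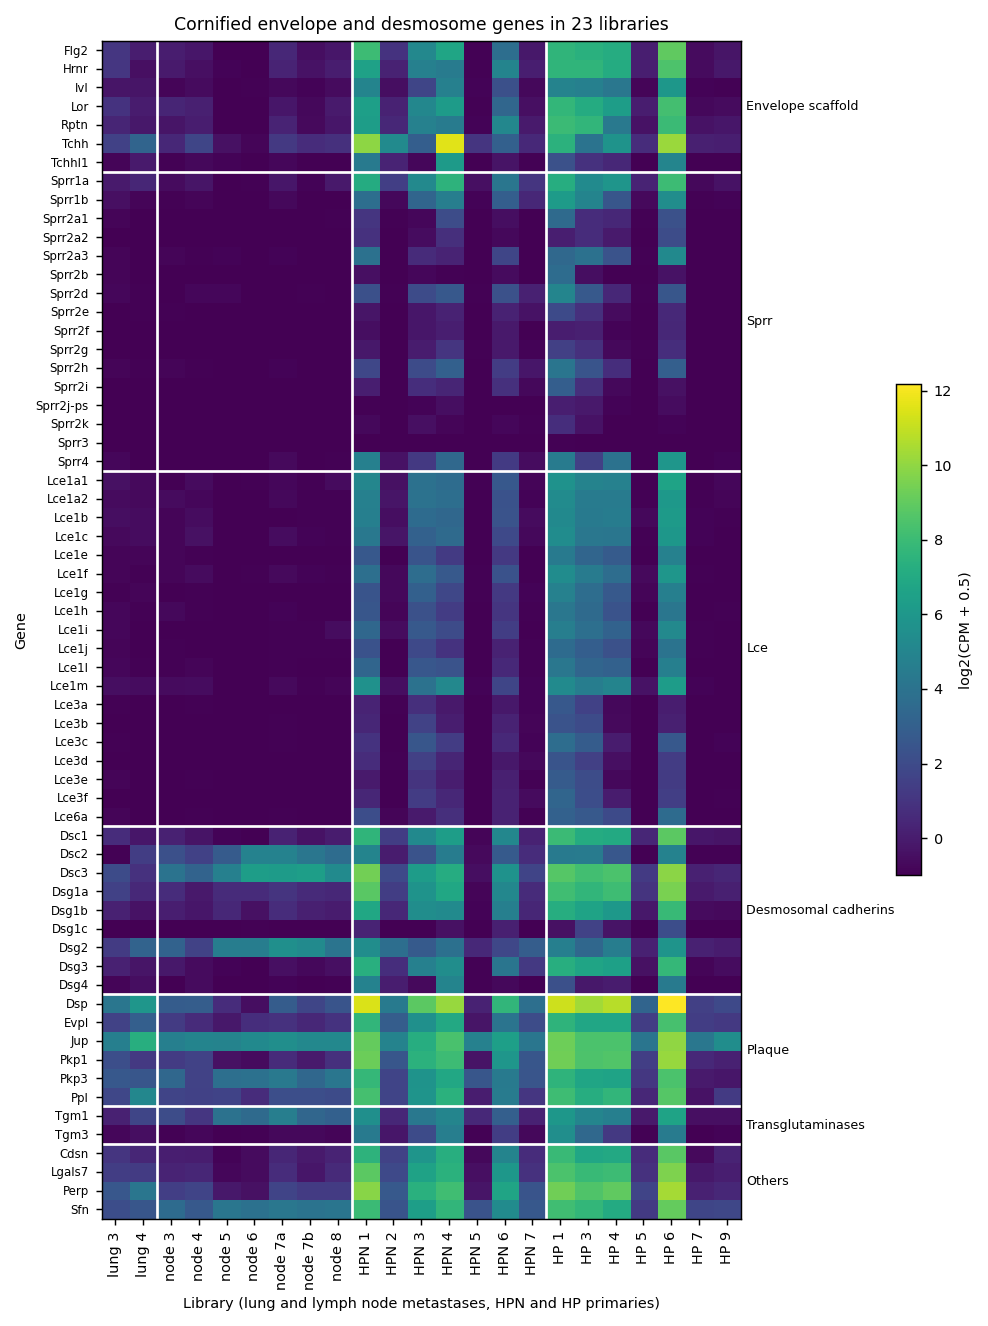
Level of each of the 63 members (rows, grouped by role) in each of the 23 libraries (columns: lungs, nodes, HPN primaries, HP primaries), as log2(CPM + 0.5) on a colour scale. HPN primaries 1, 3, 4 and 6 and HP primaries 1, 3, 4 and 6 are bright over most rows, while Dsc2, Dsc3, Dsg2, Jup, Pkp3, Tgm1 and Sfn stay bright in the nodes.

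For the order of genes given next, levels were divided by kilobases of exon. The ratios between genes further below are of plain counts, with no scaling by length. In nodes Sfn, which encodes a 14-3-3 protein, led with a mean of 8.61 CPM per kilobase, followed by Dsc3 with 7.71, Jup with 5.14, Pkp3 with 3.35, Tgm1 with 2.99, Dsc2 with 2.41 and Dsg2 with 2.37 CPM per kilobase. The next member, the desmosome-associated membrane protein gene Perp, was at 0.843 CPM per kilobase. The order in HP primaries was another one: Lgals7, a galectin gene of stratified epithelia, had the highest mean with 251 CPM per kilobase, followed by Perp with 211, desmoplakin (Dsp) with 149 and Sfn with 103 CPM per kilobase. The standard deviations over the 7 HP primaries were larger than these genes' mean levels. That spread is between libraries, and the difference between 2 genes within a library was not tested.

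Of the 63 members, 42 lie on chromosome 3: the 7 scaffold, 16 Sprr and 19 Lce genes. RefSeq start-site windows on GRCm38.p6 (250 bases before to 50 after the start) were at hand for 46 members and were searched on both strands for the AP-1 motif TGANTCA and the TATA-box letters TATAAA, which do not overlap each other. TGANTCA stood in 5 of 7 scaffold genes and 9 of 14 Sprr genes, in 0 of 18 Lce genes, and in 7.81% of all 32851 windows. TATAAA stood in 4 of 7 scaffold, 10 of 14 Sprr and 3 of 18 Lce genes, against 13.6% of all windows. TGANTCA recurred in Sprr2b, Sprr2d, Sprr2e, Sprr2f, Sprr2h, Sprr2i and Sprr2k, with its first base 193 to 198 bases before the start. In each of them TATAAA began 29 bases before the start. Sprr2k held a further TGANTCA 182 bases before the start, and the windows of Sprr2a1, Sprr2a2 and Sprr2a3 held neither motif. The 250 bases before the start are shown for 4 genes that hold TGANTCA and for 2 Lce genes that do not, with both motifs in capitals. A match is a description of letters, not a site of binding.
Lor, chr3:92083143-92083392, minus strand, Sprr2d, chr3:92338890-92339139, plus strand, Sprr1a, chr3:92485882-92486131, minus strand, Ivl, chr3:92573736-92573985, minus strand, Lce1a1, chr3:92648308-92648557, minus strand, and Lce1m, chr3:93019062-93019311, minus strand, read 5′ to 3′:
Lor: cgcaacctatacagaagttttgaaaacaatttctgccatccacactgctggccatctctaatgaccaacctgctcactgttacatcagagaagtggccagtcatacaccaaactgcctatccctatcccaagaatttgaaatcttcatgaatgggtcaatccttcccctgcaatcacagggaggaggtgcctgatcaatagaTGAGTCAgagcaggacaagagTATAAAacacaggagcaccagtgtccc
Sprr2d: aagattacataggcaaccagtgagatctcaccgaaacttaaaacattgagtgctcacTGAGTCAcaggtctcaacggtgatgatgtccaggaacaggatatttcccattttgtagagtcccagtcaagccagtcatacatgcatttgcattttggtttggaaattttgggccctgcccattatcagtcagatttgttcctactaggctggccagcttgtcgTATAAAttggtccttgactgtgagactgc
Sprr1a: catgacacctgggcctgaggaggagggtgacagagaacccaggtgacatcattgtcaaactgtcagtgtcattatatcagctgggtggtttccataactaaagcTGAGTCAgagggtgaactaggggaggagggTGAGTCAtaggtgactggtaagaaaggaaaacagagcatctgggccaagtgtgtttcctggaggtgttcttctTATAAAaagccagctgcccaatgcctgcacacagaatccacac
Ivl: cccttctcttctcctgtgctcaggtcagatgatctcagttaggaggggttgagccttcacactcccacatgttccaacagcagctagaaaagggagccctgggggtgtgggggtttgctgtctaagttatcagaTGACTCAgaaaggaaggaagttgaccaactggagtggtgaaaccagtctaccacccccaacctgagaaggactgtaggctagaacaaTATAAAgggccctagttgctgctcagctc
Lce1a1: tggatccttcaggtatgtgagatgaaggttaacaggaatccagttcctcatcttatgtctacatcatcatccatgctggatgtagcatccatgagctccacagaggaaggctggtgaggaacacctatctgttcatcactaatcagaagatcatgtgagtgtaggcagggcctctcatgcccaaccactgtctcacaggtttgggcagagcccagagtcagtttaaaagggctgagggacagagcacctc
Lce1m: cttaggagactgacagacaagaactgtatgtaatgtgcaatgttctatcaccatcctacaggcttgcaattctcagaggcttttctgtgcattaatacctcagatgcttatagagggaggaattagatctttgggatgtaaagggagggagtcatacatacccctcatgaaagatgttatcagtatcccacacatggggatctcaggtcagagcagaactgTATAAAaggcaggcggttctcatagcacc

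Setting the node metastases against the HPN primaries asks how the tumours differ between the 2 sites within 1 genotype. Envelope genes were near 0 in the nodes, and most desmosome genes were low, but a small group of desmosomal and related genes was not. Of the 59 members tested, 53 were lower in nodes than in HPN primaries and 0 were higher at an adjusted p under 0.05 in edgeR's quasi-likelihood fit, where 9.81% of all 19152 genes tested were lower and 12.7% higher, 22.5% in all. The median log2 difference of the members was -6.67, or -6.4 with the 16 members that had at most 3 counts over the nodes set to a bound from 3 counts, against -0.08 over all genes. Sprr2b, Sprr2j-ps, Sprr2k and Sprr3 had too few counts to be tested. With the title number as a block, which rests on numbers 3 to 7, 13 members were called lower, 55 of 59 differences were negative and the median was -5.55. Over all genes that fit called 351 lower and 923 higher. Without the libraries of this fit whose files hold a low-quality entry above 0 (nodes 7a, 7b and 8 and HPN primary 7), 24 members were lower. Over all genes 389 were lower and 1153 higher in that setting.

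All 7 scaffold genes were called lower in nodes without the block, and 0 of the 7 with it. Lor (ENSMUSG00000043165) encodes loricrin, the main protein of the envelope. Its lowest, median and highest levels were 0, 0.364 and 0.795 CPM over the node libraries, against 0.0194, 9.62 and 86.1 CPM over the HPN primaries, with HPN primary 5 lowest and HPN primary 1 highest. The groups overlapped in HPN primaries 2, 5 and 7, and the log2 difference was -6.43 (SE 1.66, adjusted p = 0.0136). The filaggrin relatives Flg2 and Hrnr had medians of 0.379 and 0.287 CPM in nodes, against 13.2 and 22.2 CPM in HPN primaries. Flg2 reached 0.897 CPM in node 7a and 260 CPM in HPN primary 1, with a log2 difference of -7.60 (SE 1.79, adjusted p = 0.00856). Tchh (ENSMUSG00000052415), trichohyalin of the hair follicle's inner root sheath, ran from 0.0603 to 2.93 CPM in nodes with a median of 1.1 CPM, against 0.918 to 3070 CPM in HPN primaries with a median of 7.69 CPM. Its log2 difference was -9.05 (SE 2.17, adjusted p = 0.00947), and HPN primary 4 held the highest level. With the block the log2 differences of Lor, Flg2, Hrnr and Tchh were -5.58, -6.18, -5.52 and -4.81, with adjusted p of 0.0693, 0.081, 0.107 and 0.17.

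Of the 12 Sprr genes tested, 11 were called lower and Sprr2a2 did not pass (adjusted p = 0.0532). With the block 4 of the 11 were called, namely Sprr1a, Sprr1b, Sprr2e and Sprr2h, where Sprr2e had 1 count over all nodes together. The cross-bridging protein genes Sprr1a and Sprr1b had medians of 0.145 and 0 CPM in nodes, against 17.7 and 7.24 CPM in HPN primaries. Their log2 differences were -8.11 (SE 1.57, adjusted p = 0.0027) and -8.02 (SE 1.51, adjusted p = 0.0023). Sprr4 was at or under 0.14 CPM in every node, against 0 to 25.8 CPM in HPN primaries (median 1.78 CPM). Of the 16 Sprr genes 8 had no count in any node: Sprr2a2, Sprr2b, Sprr2f, Sprr2g, Sprr2i, Sprr2j-ps, Sprr2k and Sprr3.

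All 19 Lce genes were called lower, and 7 of the 19 with the block, Lce1b among them. Of these 7, Lce1e had 3 counts over all nodes together, and Lce1g, Lce3a, Lce3c and Lce3e had 1 count each. Lce1m, Lce1a1, Lce1a2 and Lce1b, the 4 with the highest mean CPM over all libraries, were at or under 0.176 CPM in every node. Their medians over HPN primaries were 2.82, 5.77, 4.43 and 4.61 CPM. Node 5 had 0 counts over the 19 Lce genes together, at a depth of 18870759 counts, and node 6 had counts in 2 of the 19. The log2 difference of Lce1m was -7.57 (SE 1.73, adjusted p = 0.00731) and that of Lce1b -7.25 (SE 1.64, adjusted p = 0.00684). With the block Lce1m, Lce1a1 and Lce1a2 had adjusted p of 0.062, 0.0552 and 0.0813.

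The desmosomal cadherins divided. Dsc1, Dsg1a, Dsg1b, Dsg1c, Dsg3 and Dsg4, of which Dsc1 and Dsg1 are cadherins of the upper epidermis, Dsg3 of its lower layers and Dsg4 of the hair shaft, were called lower, of which Dsg3 alone kept its call with the block (adjusted p = 0.0306). Dsg3 had 0, 0.146 and 0.398 CPM as the lowest, median and highest of the nodes, against 0.0194, 16.9 and 160 CPM in HPN primaries. Its log2 difference was -7.81 (SE 1.61, adjusted p = 0.00407), and only HPN primary 5 lay within the node range. Dsc1 and Dsg1a had log2 differences of -7.26 (SE 1.60, adjusted p = 0.00599) and -6.67 (SE 1.56, adjusted p = 0.0082), and with the block adjusted p of 0.082 and 0.264. Dsc2, Dsc3 and Dsg2 were not called. All 9 cadherin genes lie together on chromosome 18.

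Dsc3 (ENSMUSG00000059898), the desmocollin of basal epidermis, had 15.7, 8.58, 26.7, 79.8, 76.1, 84.6 and 38.9 CPM in nodes 3, 4, 5, 6, 7a, 7b and 8. In HPN primaries 1 to 7 it had 676, 3.28, 76.6, 145, 0.194, 51.3 and 2.75 CPM. Every node lay above HPN primaries 2, 5 and 7, and the log2 difference was -1.79 (SE 1.24, adjusted p = 0.302), or 0.84 with the block (adjusted p = 0.813). Dsc2 (ENSMUSG00000024331), a desmocollin also found in simple epithelia and heart, had 4.16, 2.46, 6.35, 28.5, 28.5, 17.4 and 12 CPM in the nodes in the same order. In HPN primaries 1 to 7 it had 30.8, 0.517, 4.69, 22.3, 0.136, 6.11 and 1.07 CPM. The ranges overlapped, and the log2 difference was 0.37 (SE 1.06, adjusted p = 0.818). Dsg2 (ENSMUSG00000044393), the desmoglein of simple epithelia and heart, had 8.35, 2.58, 23.6, 23.9, 46.6, 38.8 and 16.6 CPM in the nodes. In HPN primaries 1 to 7 it had 43.2, 13.1, 6.24, 13.9, 0.953, 3 and 6.83 CPM. Of the 7 nodes 5 lay above every HPN primary except number 1, and the log2 difference was 0.61 (SE 0.76, adjusted p = 0.58).

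The plaque genes also divided. Dsp (ENSMUSG00000054889), desmoplakin, had 6.54, 7, 1.12, 0.211, 6.7, 2.92 and 4.84 CPM in nodes 3, 4, 5, 6, 7a, 7b and 8, against 2740, 21.3, 458, 1150, 0.719, 207 and 13.4 CPM in HPN primaries 1 to 7. Only HPN primary 5 lay within the node range, and the log2 difference was -7.40 (SE 1.67, adjusted p = 0.00671), or -5.17 with the block (adjusted p = 0.129). Pkp1, the plakophilin of stratified epithelia, fell by 7.17 on the log2 scale (SE 1.52, adjusted p = 0.00487) and was the 1 plaque gene called with the block (adjusted p = 0.0461). The plakin genes Ppl and Evpl were called lower without the block only. Jup, plakoglobin, which also joins classical cadherins, ran from 25.6 to 44.7 CPM in nodes (median 35.1), against 17.7 to 538 CPM in HPN primaries (median 85.1). Jup was called lower with a log2 difference of -2.41 (SE 0.77, adjusted p = 0.0371), a call lost when HPN primary 1, 3 or 4 or any 1 of the node animals was left out, and with the block (adjusted p = 0.326). Pkp3, a plakophilin of wide epithelial occurrence, ran from 2.49 to 19.4 CPM in nodes (median 13.5), against 2.72 to 218 CPM in HPN primaries (median 20.8), and was not called (log2 difference -2.40, SE 0.93, adjusted p = 0.075; DESeq2 gave 0.0139).

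Among the 2 transglutaminases and the remaining 4 genes, 5 were called lower without the block and 0 with it. The log2 difference of Tgm3 was -6.96 (SE 1.53, adjusted p = 0.00587, with the block 0.0689). Tgm1 (ENSMUSG00000022218), the membrane-bound crosslinker of the envelope, had 3.61, 1.61, 15.4, 11.1, 24.5, 9.89 and 7.87 CPM in nodes 3, 4, 5, 6, 7a, 7b and 8. In HPN primaries 1 to 7 it had 47.2, 0.897, 18.9, 31.2, 0.953, 7.35 and 0.714 CPM. Every node lay above HPN primaries 2, 5 and 7, and Tgm1 was not called (log2 difference -0.76, SE 0.94, adjusted p = 0.578, or 0.61 with the block, adjusted p = 0.831). Perp, Lgals7 and the corneodesmosin gene Cdsn were called lower, with log2 differences of -7.07 (SE 1.56), -7.63 (SE 1.58) and -7.12 (SE 1.49) and adjusted p of 0.00604, 0.00412 and 0.00438, and with the block 0.0994, 0.056 and 0.0561. Sfn ran from 5.89 to 18.2 CPM in nodes (median 15.8), against 4.65 to 253 CPM in HPN primaries (median 40.1), and was called lower by a small margin (log2 difference -2.68, SE 0.91, adjusted p = 0.0474). That call was lost when any node animal, either lung, or HPN primary 1, 3, 4 or 6 was left out, and with the block (adjusted p = 0.527).

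**Figure D2:**
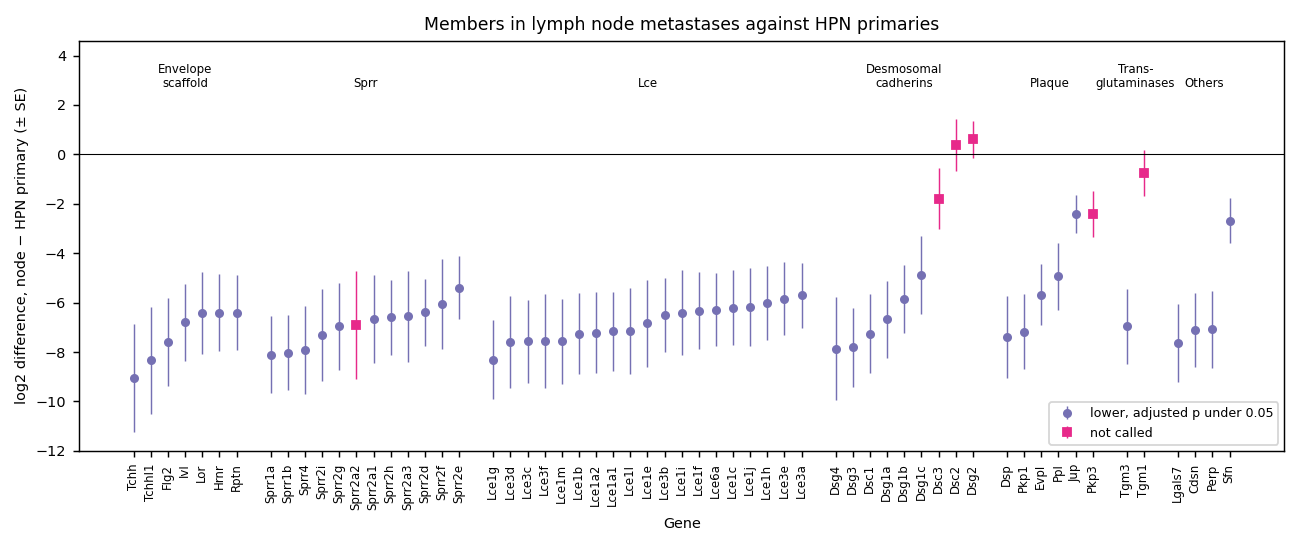
Log2 difference, nodes minus HPN primaries, of the 59 members tested (vertical axis, bars ± SE from the edgeR fit), grouped by role and sorted within it; circles were called lower and squares were not called. Most members lie between -5 and -9, while Dsc3, Dsc2, Dsg2, Jup, Pkp3, Tgm1 and Sfn lie above -3; values of the 16 members with at most 3 counts over the nodes depend on the fit's prior count.

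Node 7a had the highest basal (37.6 CPM) and suprabasal (11.2 CPM) keratinocyte marker sums of the nodes. Of its basal sum 25.1 CPM was Itgb4. Its Krt5 was the highest of the nodes (4.6 CPM), but its Krt14 (4.37 CPM) was below that of nodes 3 and 4 (4.59 and 5.68 CPM). Node 7a also had the highest Dsg2 and Tgm1, and it shared the highest Dsc2 with node 6, while Dsc3 was highest in node 7b. Node 6 had the lowest Krt14 (0.0603 CPM), Dsp (0.211 CPM) and basal marker sum (13.6 CPM, of which 12 CPM was Itgb4) of the nodes. Its Dsc3 was 79.8 CPM. HPN primary 5, whose basal marker sum was 6.88 CPM (5.62 CPM of it Itgb4), had 0.194 CPM of Dsc3, 0.136 CPM of Dsc2 and 0.953 CPM each of Dsg2 and Tgm1. The same primary held 27.2 CPM of Jup, 5.33 CPM of Pkp3 and 4.65 CPM of Sfn beside 0.719 CPM of Dsp. The ratio of Dsc2 to Dsc1 counts was 6.39, 7.64, 40.7, 60.5 and 24.2 in nodes 3, 4, 7a, 7b and 8, against 0.125 to 1.56 in the 6 HPN primaries where both genes had at least 10 counts. Lymphocyte markers differed between the same nodes. The sum of 6 B cell markers was 339, 163, 1560, 1070, 1000, 745 and 1110 CPM in nodes 3, 4, 5, 6, 7a, 7b and 8, against 0.612 to 8.64 CPM in HPN primaries, and that of 6 T cell markers was 219, 87.7, 452, 572, 533, 390 and 405 CPM, against 5.62 to 30 CPM. The sum of 5 endothelial markers was 193, 150, 378, 360, 429, 463 and 339 CPM in the nodes, against 92.1 to 196 CPM. Nodes 3 and 4 were the lowest of the nodes for all 3 sums and for Dsc2, Dsc3, Dsg2 and Tgm1. The other nodes did not keep to 1 order: node 5 had the highest B cell sum, but only nodes 3 and 4 had less Dsc2 and Dsc3. The melanocyte lineage sum was highest in nodes 4 and 3 (43600 and 29900 CPM) and lowest in node 5 (4430 CPM). All markers of the B cell, T cell and endothelial lists were detected in both groups. The part of these markers and of the melanocyte markers in the results was not tested.

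**Figure D3:**
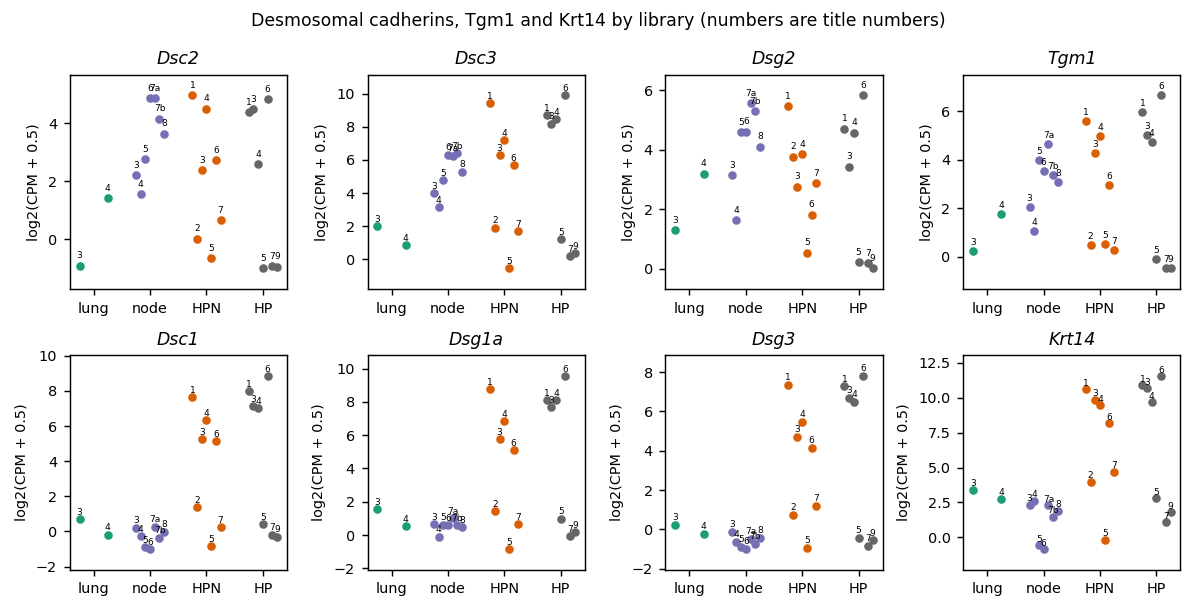
Level of Dsc2, Dsc3, Dsg2 and Tgm1 (upper row), of Dsc1, Dsg1a and Dsg3 and of the basal keratin Krt14 (lower row) in each library as log2(CPM + 0.5), by group; points are libraries with their title numbers. In the upper row the nodes lie within the range of the primaries. The highest nodes come near the highest primaries for Dsc2 and Dsg2, but not for Dsc3 and Tgm1. In the lower row the nodes sit with the lowest primaries.

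Genes that work with the members were counted from lists of the same pathway. Of 19 crosslinking and protease genes tested, 15 were lower in nodes (median log2 difference -6.89), among them the cystatin Cst6 (-3.78, SE 0.66), the kallikrein Klk10 (-6.88, SE 1.42) and the serpin Serpinb5 (-7.56, SE 1.59). Of 18 barrier lipid genes 14 were lower (median -5), with the fatty acid elongase Elovl4 at -5.33 (SE 1.07) and the ceramide synthase Cers3 at -5.99 (SE 1.28), and of 12 other genes of the chromosome 3 differentiation complex 10 were lower (median -6.94). Of 13 partner keratins 11 were lower (median -7.29), with Krt6a, a keratin of activated epidermis, at -7.12 (SE 1.44). Among regulators, 7 of 14 keratinocyte transcription factors were lower (median -3.54), with Klf5 at -3.38 (SE 0.69) and Zfp750 at -7.21 (SE 1.57). So were 10 of 17 other junction genes (median -2.27), among them the tight junction gene Cldn4 at -5.98 (SE 1.43). Of 9 hemidesmosome genes 5 were lower (median -1.34), where the linker gene Plec, which many tissues express, was at -0.94 (SE 0.18) and the keratinocyte collagen gene Col17a1 at -6.61 (SE 1.41). None of these lists had a member called higher. Over all 19152 genes tested 9.81% were lower and 12.7% higher, and the median log2 difference was -0.08. With the block Cst6, Elovl4, Cers3, Klf5 and Plec were still called, and Klk10, Serpinb5, Krt6a, Zfp750, Cldn4 and Col17a1 were not.

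Lung metastases were compared with HPN primaries next. The mean of the lungs lay below that of the HPN primaries for every member tested, but 6 members of different roles in lung 4, and in lung 3 only Sprr2b, were above the HPN median. In lung 4 these were Jup (154 CPM, HPN median 85.1), Ppl (34.2 CPM, HPN median 21.7), Dsg2 (8.64 CPM, HPN median 6.83), Tchh (8.88 CPM, HPN median 7.69), Tchhl1 (0.478 CPM, HPN median 0.316) and Dsg4 (0.205 CPM, HPN median 0.137). Tchhl1 and Dsg4 rest on 14 and 6 counts in lung 4. Sprr2b rests on 2 counts in lung 3 and was not tested. In edgeR's fit 0 of 59 members were called in either direction, where 0.0157% of all genes tested were lower and 0.251% higher, 0.266% in all. All 59 log2 differences were negative, with a median of -5.61 (-4.98 with 21 members at their bound) against -0.06 over all genes, and 36 members had an unadjusted p under 0.05. DESeq2 called 17 members lower, Dsc3 among them, where it called 190 of all genes lower and 168 higher. With 2 lung libraries the fit borrows its spread from the other groups. Lor had 1.41 and 0.512 CPM in lungs 3 and 4, with a log2 difference from HPN primaries of -4.98 (SE 2.54, adjusted p = 0.716). Dsc3 had 3.58 and 1.33 CPM, with a log2 difference of -5.86 (SE 2.54, adjusted p = 0.675).

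The 2 lungs differed from each other, and not in 1 direction. Lung 4 was higher for 18 members and lung 3 for 34, mostly Lce and Sprr genes at low levels, and 11 were equal. Of the 6 plaque genes 4 were higher in lung 4, while Pkp1 had 4.03 CPM in lung 3 and 1.81 CPM in lung 4, and Pkp3 5.69 and 5.29 CPM. Dsp had 17.7 CPM in lung 3 and 60.5 CPM in lung 4, Jup 25.5 and 154 CPM, Ppl 3.04 and 34.2 CPM, and the membrane protein gene Perp 5.53 and 17.5 CPM. Outside the plaque, Dsc2 had 0.032 CPM in lung 3 and 2.15 CPM in lung 4, Dsg2 1.95 and 8.64 CPM, Tgm1 0.672 and 2.9 CPM, and Tchh 2.43 and 8.88 CPM. Tissue markers also differed between these libraries. Of the 6 lung epithelium markers the sum was 0.512 CPM in lung 3 and 7060 CPM in lung 4, and that of 6 heart muscle markers was 0.704 and 747 CPM. Sftpc, surfactant protein C of the alveolar type II cell, had 0.192 and 4620 CPM. The sum of 5 simple epithelium markers was 23.3 and 228 CPM in lungs 3 and 4, while the basal keratinocyte sum was 32.7 and 34.4 CPM. Of this basal sum Itgb4 made up 5.63 CPM in lung 3 and 15 CPM in lung 4. Krt5, Krt14 and Col17a1 were higher in lung 3, and Itgb4, Krt15 and Trp63 in lung 4. The suprabasal keratinocyte sum was 23.8 CPM in lung 3 and 5.39 CPM in lung 4. The hair follicle marker sum lay the other way, with 4.06 and 10.9 CPM. In nodes the lung epithelium sum was at most 5.83 CPM, in HPN primaries at most 6.64 CPM and in HP primaries at most 14.2 CPM. The part of these markers in the levels of these members was not tested.

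**Figure D4:**
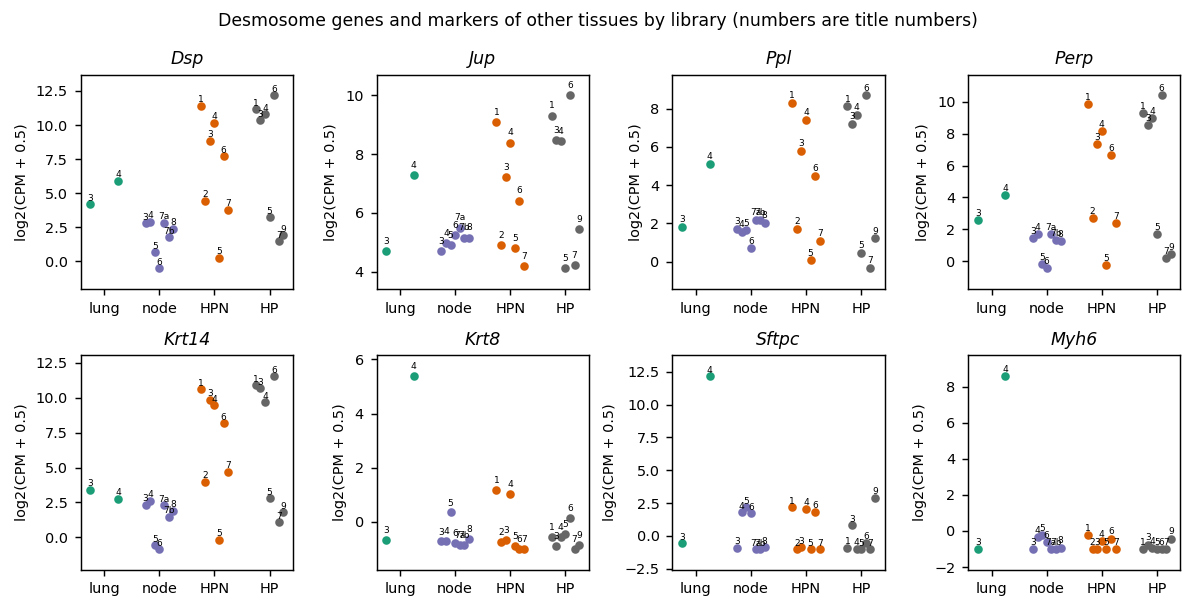
Level of Dsp, Jup, Ppl and Perp (upper row) and of Krt14, Krt8, Sftpc and the heart myosin gene Myh6 (lower row) in each library as log2(CPM + 0.5), by group; points are libraries with their title numbers. Lung 4 is above lung 3 for the 4 desmosome genes and for Krt8, Sftpc and Myh6, but not for Krt14.

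Set directly against each other, lungs were above nodes in Dsp and below them in Dsc3, with no call for any member. Of 59 members 0 were called in edgeR, where 3.09% of all genes tested were lower in lungs and 1.96% higher, 5.04% in all. Of the members 0 had an unadjusted p under 0.05, and DESeq2 called 0. Dsp had 17.7 and 60.5 CPM in the lungs, above all nodes (0.211 to 7 CPM), and a log2 difference of 3.30 (SE 1.64, adjusted p = 0.247). Ppl had a log2 difference of 2.79 (SE 1.49, adjusted p = 0.281), which was 0.14 without lung 4, and Perp one of 2.83 (SE 1.58, adjusted p = 0.305). Jup had one of 1.49 (SE 0.99, adjusted p = 0.388), which was -0.37 without lung 4. Dsc3 lay the other way: it had 3.58 and 1.33 CPM in lungs, below all nodes (8.58 to 84.6 CPM), with a log2 difference of -4.07 (SE 2.31, adjusted p = 0.311). Tgm1 had 0.672 and 2.9 CPM in lungs 3 and 4, against 1.61 to 24.5 CPM in nodes, with a log2 difference of -2.37 (SE 1.61, adjusted p = 0.399).

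The comparison of HPN with HP primaries asks what the loss of 1 copy of both Nme genes goes with in the primary tumour. Most members were lower on average in HPN primaries, but none beyond the spread between libraries. Of 56 members tested 0 were called by edgeR, as were 0% of all 16578 genes tested. At an unadjusted p under 0.05 there were 0 members and 477 genes, and DESeq2 called 0 of either. The differences were negative for 53 members and positive for 3, with a median log2 difference of -1.21 against -0.05 over all genes. Without HPN primary 1 the median was -2.02 and without HP primary 6 it was -0.76. With the mean of the 6 basal keratinocyte markers as a covariate, 26 differences were negative and 30 positive, the median was 0.05, and 0 members were called (7 at an unadjusted p under 0.05).

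For Lor the HPN primaries had 0.0194, 9.62 and 86.1 CPM as lowest, median and highest, against 0.105, 79.8 and 305 CPM in HP primaries. The groups overlapped over most of their range, and the log2 difference was -1.85 (SE 1.66, adjusted p = 0.951). Hrnr had medians of 22.2 CPM in HPN primaries and 137 CPM in HP primaries and the most negative difference of the members (-2.37, SE 1.62, adjusted p = 0.951). Dsp ran from 0.719 to 2740 CPM in HPN primaries, against 2.28 to 4650 CPM in HP primaries, with medians of 207 and 1330 CPM and a log2 difference of -1.12 (SE 1.62, adjusted p = 0.951). The highest library over all 23 was HP primary 6 for 38 members, HP primary 1 for 21, HPN primary 4 for 3 and HPN primary 1 for 1 (Dsc2).

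The 3 members with a positive difference were Tchh, Tchhl1, a relative of Tchh, and Dsg4. They were grouped as hair follicle members after the values were seen, and other members were not sorted by this trait. Tchh had 989, 39.8, 7.1, 3070, 1.54, 7.69 and 0.918 CPM in HPN primaries 1 to 7, against 174, 15.7, 53.5, 1.07, 1170, 0.616 and 0.571 CPM in HP primaries 1, 3, 4, 5, 6, 7 and 9. HPN primaries 4 and 1 and HP primary 6 were highest, and the log2 difference was 1.53 (SE 1.92, adjusted p = 0.951), or -0.17 without HPN primary 4. Tchhl1 had 20.6, 0.759, 0.091, 71.4, 0, 0.316 and 0.0255 CPM in the HPN primaries, against 4.31, 1.33, 0.882, 0, 31.7, 0 and 0 CPM in the HP primaries. Its log2 difference was 1.27 (SE 1.93, adjusted p = 0.951), or -0.55 without HPN primary 4. Dsg4 had 28.5, 0.552, 0.137, 30.1, 0.0194, 0.105 and 0 CPM in the HPN primaries, against 4.16, 0.412, 0.518, 0, 21.1, 0 and 0 CPM in the HP primaries, with a log2 difference of 1.18 (SE 1.90, adjusted p = 0.951). Hair follicle markers that are not members ran with these genes. All 9 such markers (8 hair and root sheath keratins and Hoxc13) had a positive difference (median 0.82) and 0 were called. The root sheath keratin Krt71 had 876 and 1200 CPM in HPN primaries 1 and 4 and 1260 CPM in HP primary 6. In the other 11 primaries it was at most 125 CPM. The part of hair follicle RNA in these values was not tested.

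Counts of Tchh relative to Lor show how much the make-up of the set varied between primaries. The ratio was 11.5, 57.8, 0.213, 41.3 and 0.8 in HPN primaries 1, 2, 3, 4 and 6, against 0.815, 0.115, 0.671, 1.94 and 3.83 in HP primaries 1, 3, 4, 5 and 6. The remaining primaries had fewer than 10 counts of Lor. Dsg4 relative to Dsg3 was 0.178, 0.485 and 0.681 in HPN primaries 1, 2 and 4, against 0.027, 0.00403, 0.00576 and 0.0952 in HP primaries 1, 3, 4 and 6, the primaries with at least 10 counts of both genes. HPN primaries 3, 6 and 7 had at least 70 counts of Dsg3 but 3, 4 and 0 counts of Dsg4, so HPN primaries held both high and low ratios. These ratios were chosen after the levels were seen and are given with no test.

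A second subset, of most Sprr2 and all Lce3 genes, peaked in HP primary 1. All 6 Lce3 genes and 11 Sprr genes, Sprr1b and Sprr2d among them, were highest there, as were Lce1g, Lce1h, Rptn and Tgm3. Sprr3, among the 11, had 2 counts over all libraries, and Sprr2a2, Sprr2a3 and Sprr2f were highest in HP primary 6. Sprr2 and Lce3 genes are known for their rise in irritated or wounded epidermis. Sprr2d had 4.18, 0.0345, 3.6, 5.8, 0.0194, 4.24 and 0.637 CPM in HPN primaries 1 to 7, against 31.1, 5.9, 0.871, 0.0345, 5.3, 0.0131 and 0 CPM in HP primaries 1, 3, 4, 5, 6, 7 and 9. Lce3c had 1.4, 0, 5.23, 2.04, 0, 0.922 and 0.051 CPM in the HPN primaries, against 12.8, 6.74, 0.518, 0, 5.74, 0 and 0.0394 CPM in the HP primaries. The ratio of Lce3c to Lce1m counts was 0.342 and 0.327 in HPN primaries 3 and 6, and 0.322 and 0.286 in HP primaries 1 and 3. It was 0.0284 and 0.058 in HPN primaries 1 and 4, and 0.0173 and 0.0734 in HP primaries 4 and 6, so both genotypes held primaries of each kind.

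**Figure D5:**
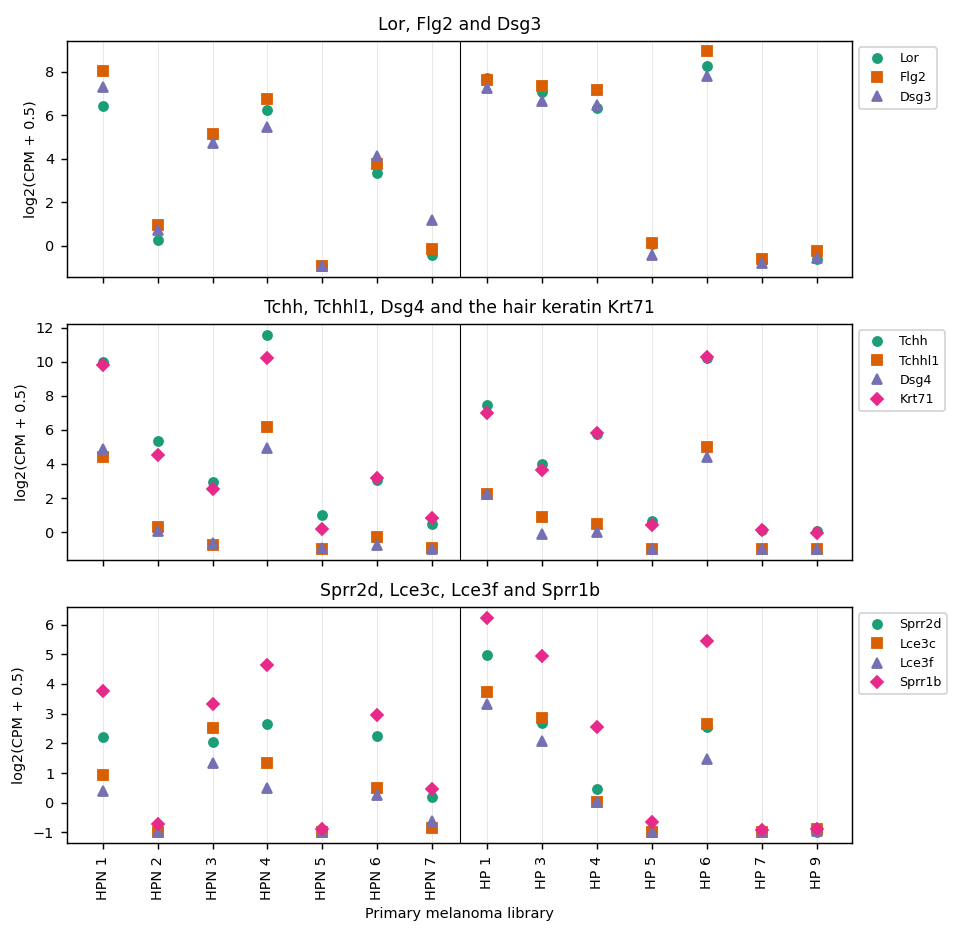
Level in each primary as log2(CPM + 0.5), HPN primaries left of the line and HP primaries right of it: Lor, Flg2 and Dsg3 (top), the hair follicle members Tchh, Tchhl1 and Dsg4 with the root sheath keratin Krt71 (middle), and Sprr2d, Lce3c, Lce3f and Sprr1b (bottom). The middle genes peak in HPN primaries 1 and 4 and HP primary 6, and those at the bottom in HP primary 1.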

How the data were processed

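Total RNA of 23 mouse melanoma libraries had been sequenced with a directional kit, per the labels' protocols. The deposited files hold raw counts per Ensembl gene; bcl2fastq 1.8.4, STAR 2.5.3a and the mm9 build are named in the submitters' processing notes, while annotation and strand setting are not stated there or in the labels. Without a stated strand setting, reads of overlapping antisense genes cannot be told apart. Summary entries, which name no gene, took 49.2 to 75.0% of each file and were left out. Symbols were given to 32897 of 37620 identifiers (87.4%) with a table that pairs Ensembl identifiers and gene names, and exon lengths came from GENCODE on GRCm38.

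Groups follow the genotype and tissue labels. Counts were fitted with edgeR 4.0.16 (quasi-likelihood, robust, filterByExpr, TMM) in R 4.3.3, once over the 14 primaries and once over HPN primaries, nodes and lungs with nodes 7a and 7b summed as 1 animal. P-values were adjusted by Benjamini-Hochberg over all genes tested, with a threshold of 0.05. Alternatives were DESeq2 1.42.0, its size factors, other filters, a replicate block, and leaving out libraries. Title numbers were read as animals within HPN; same-numbered node and HPN libraries correlated at 0.25, 0, -0.08, 0.27 and 0.13 (numbers 3 to 7) in their deviations from group means. The fits were tested on simulated data. Members, gene lists and tests were chosen with earlier results of these data known. Members were named by rule: up to 4 of each role with the highest mean level, any with a mean of at least 5 CPM in HPN primaries but no call in nodes, and, from each pathway list, up to 3 genes with the smallest p in nodes. Ratios between members, the hair follicle members, the Sprr2 and Lce3 subset and other members outside the rule were picked after values were seen. The comparisons with HPN primaries share those libraries.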

Additional observations from a re-analysis of the deposited data

Results flagged for a closer look

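In a search for single samples far from their group, on log2(CPM + 0.5) with nodes 7a and 7b as 1 animal, 2 of 156 pairs of a gene and a group were found, and chance alone marks about 1 in 20 such groups. Dsg4 in node 4 was 0.146 CPM, against 0 to 0.0291 CPM in the other nodes, with a gap of 0.78 of the group's range, and rests on 5 counts. Pkp3 in node 4 was 2.49 CPM, against 10 to 17.3 CPM in the other nodes, with a gap of 0.71 of the range.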

How the results depend on the processing

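The 53 members lower in nodes became 13 with the title number as a replicate block and 24 without the libraries with a low-quality entry, and leaving out 1 library or animal gave 48 to 55. In lungs against HPN primaries DESeq2 called 17 members, against 0. Leaving out 1 library left 0 members called in the lung and genotype comparisons. Directions turned, with no call on either side, for Dsc3 (0.84) and Tgm1 (0.61) in nodes under the block, for Dsc2 in nodes without the low-quality libraries (-0.13), for Tchh (-0.17) and Tchhl1 (-0.55) between genotypes without HPN primary 4, and for Jup in lungs against nodes without lung 4 (-0.37). Leaving out 1 library, these 3 ran from -0.17 to 3.82, -0.55 to 3.6 and -0.37 to 2.27. The median of the members in lungs against nodes was -0.2 under the block, against 1.31. Over all genes, calls in nodes against HPN primaries (4313) were 1274 under the block, 1542 without low-quality libraries and 2731 to 5333 leaving out 1 library. Those in lungs against HPN primaries (51) were 358 by DESeq2, 138 with no filter, 114 with a mean CPM over 1, 0 under the block, 1 without low-quality libraries and 0 to 393 leaving out 1. Those in lungs against nodes (966) were 2467 by DESeq2, 0 under the block, 0 without low-quality libraries and 0 to 2017 leaving out 1. Between genotypes the block gave 1 gene, against 0; its numbers join different animals there. The cause of these shifts was not tested. The 2 lung libraries, and members with few counts in nodes, limit what can be told.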
